A study of Mus musculus with 8 samples.

Results

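Genes of the major histocompatibility complex (MHC) and of peptide loading were followed in mouse myeloid progenitors that carried a Trim27 virus or a GFP virus. Of the 33435 named genes in the count table, 10 were taken by symbol, namely the class I heavy chains H2-K1 and H2-D1, the light chain B2m, the loading genes Tap1, Tap2 and Tapbp, and the class II genes H2-Aa, H2-Ab1, H2-DMa and Cd74. All 10 passed the filter on low counts, H2-DMa only through its Trim27 libraries, since no GFP library had more than 2 counts of it. The Trim27 group consisted of 4 libraries from C57BL/6J fetal liver hematopoietic stem and progenitor cells of stage E14.5, infected with a Trim27 virus. The GFP group consisted of 4 libraries from cells of the same strain, age and tissue, infected with a GFP control virus, which the design text calls empty vector. In both groups myeloid progenitors were sorted after infection. The sources used here do not give the sort markers, the vector promoter or the number of embryos. Nothing in the labels ties a library to a culture or an embryo of its own, so the p-values cover the spread between libraries alone, and that spread may be technical.

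MHC class I molecules consist of a heavy chain and beta-2 microglobulin and show peptides from inside the cell at the surface of nearly every nucleated cell. The peptides are cut by the proteasome, carried into the endoplasmic reticulum by the transporter TAP and fitted onto the heavy chain with the help of tapasin. MHC class II molecules consist of an alpha and a beta chain, are held by the invariant chain during transport and receive peptides in endosomes with the help of H2-DM. They are best known from dendritic cells, macrophages and B cells, and their transcription depends on Ciita, while Nlrc5 plays the like part for class I.

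Control regions of 4 of these genes are shown because the class I chains and B2m, which share known kinds of control element, did not move together. RefSeq windows of build GRCm38.p6 were found for 7 of the 10 genes, and the 250 bases before the annotated start are printed here for the class I chains, B2m and H2-Aa. Capitals mark matches on either strand to a kappaB-like motif (GGGA, any base, T, a pair of any bases, CC), to interferon response-like motifs (GAA or GAAA, a pair of any bases, GAAA), to TGACG (the core of a cyclic AMP response element) and to CCAAT.
H2-K1, chr17:34000348-34000597, minus strand: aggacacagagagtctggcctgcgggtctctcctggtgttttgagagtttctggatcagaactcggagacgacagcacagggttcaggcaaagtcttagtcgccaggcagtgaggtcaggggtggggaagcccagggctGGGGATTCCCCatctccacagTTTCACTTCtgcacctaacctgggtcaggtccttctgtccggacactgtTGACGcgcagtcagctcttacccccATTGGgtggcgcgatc
H2-D1, chr17:35262844-35263093, plus strand: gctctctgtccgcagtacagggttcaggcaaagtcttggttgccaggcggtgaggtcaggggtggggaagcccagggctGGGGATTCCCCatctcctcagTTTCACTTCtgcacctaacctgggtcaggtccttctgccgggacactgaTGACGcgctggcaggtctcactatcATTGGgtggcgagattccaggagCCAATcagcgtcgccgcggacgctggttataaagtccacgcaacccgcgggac
B2m, chr2:122147437-122147686, plus strand: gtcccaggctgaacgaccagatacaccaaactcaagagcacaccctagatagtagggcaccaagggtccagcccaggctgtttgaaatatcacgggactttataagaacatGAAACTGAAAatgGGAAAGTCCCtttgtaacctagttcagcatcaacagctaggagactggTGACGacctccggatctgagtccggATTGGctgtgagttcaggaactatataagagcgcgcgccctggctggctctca
H2-Aa, chr17:34287824-34288073, minus strand: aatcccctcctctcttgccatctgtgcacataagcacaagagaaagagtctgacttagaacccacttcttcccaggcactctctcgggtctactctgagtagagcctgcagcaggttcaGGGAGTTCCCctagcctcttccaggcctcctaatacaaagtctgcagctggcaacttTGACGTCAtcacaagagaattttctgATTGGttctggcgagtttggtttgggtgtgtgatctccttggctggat
H2-K1, H2-D1 and B2m each held a kappaB-like motif, an interferon response-like motif, a TGACG and a CCAAT in this window. The interferon response-like match was only to the form that begins with GAA in H2-K1 and H2-D1. In B2m it was only to the form that begins with GAAA. The kappaB-like letters of H2-K1 and H2-D1 match on both strands at overlapping positions, which start 110 and 111 bases before the start of H2-K1 and 170 and 171 bases before that of H2-D1. The H2-Aa window held a kappaB-like motif, overlapping TGACG matches on both strands and a CCAAT, and no interferon response-like letters. Tap1 held 1 TGACG and 1 CCAAT, Tapbp held 2 CCAAT matches, and H2-DMa held no match. Among 32851 promoter windows of the same length, 3.44% held the kappaB-like motif, 6.31% the interferon response-like motif that begins with GAA, 2.98% the one that begins with GAAA, 17.8% TGACG and 33.8% CCAAT. These matches describe letters only.

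Total counts were 10551137 to 16366571 in the Trim27 libraries and 9257889 to 10747794 in the GFP libraries. CPM is the count scaled to the size of each library after correction by the trimmed mean of M values (TMM), and folds are Trim27 over GFP. Trim27 itself stood at 268, 311, 292 and 301 CPM in Trim27 libraries and at 191, 184, 177 and 171 CPM in GFP libraries (log2 fold change 0.70, SE 0.05, adjusted p = 7.4e-13). Here and below, unless another tool is named, adjusted p-values are from the edgeR quasi-likelihood test after Benjamini-Hochberg correction. After a length correction, which takes out how each library's values drift with the size of the transcript, the Trim27 value was 0.14 (adjusted p = 0.027 by edgeR). Of 11040 genes tested, 85.5% passed an adjusted p of 0.05, 47.5% higher and 38.0% lower, so a single call is ordinary here and the size of a change is read against genes of like abundance. Myeloid progenitor markers summed to 2280 to 2520 CPM in Trim27 libraries and 2040 to 2160 CPM in GFP libraries, and all 11 were detected. Of these 11, 3 rose and 7 fell, against the direction of the sum. Csf2rb, 1 of those that rose, stood at 1193 CPM in Trim27 libraries and 472 CPM in GFP libraries. Cytosolic ribosomal protein genes took 18.6% ± 0.349 of counts in Trim27 libraries and 26.4% ± 0.0569 in GFP libraries (SD, n = 4 each), and with scaling by library size alone the median over all tested genes was 0.44, against 0.14 with TMM (log2 fold change). Under that scaling 66.9% of calls were higher, against 55.6% with TMM. In bulk RNA, fewer cells of a type and less RNA per cell cannot be told apart.

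All 10 MHC and loading genes passed the threshold, against 85.5% of all tested genes. H2-K1, Tap1, Tap2, H2-Aa, H2-Ab1 and H2-DMa rose, and H2-D1, B2m, Tapbp and Cd74 fell, although B2m was higher with library size alone and after either length correction, and Tapbp was at 0.0035 with library size alone. The median log2 fold change of the 10 was 0.68, against 0.14 over all tested genes. With a filter of 10 CPM in 4 libraries, which kept 8 of them, it was 0.21, against 0.03 over all tested genes. With library size alone it was 0.98, against 0.44. The groups did not overlap for 9 of the 10, all but B2m, against 80.7% of all tested genes (45.3% higher and 35.4% lower). These figures include H2-DMa, which entered the test through the group where it is high. Among tested genes of like abundance, the share with a lower fold change was 96.6% for H2-K1, 79% for Tap1, 76.9% for H2-DMa, 69.9% for Tap2, 65.1% for H2-Ab1, 55.3% for H2-Aa, 46.3% for B2m, 42.4% for Tapbp, 35.8% for H2-D1 and 7.89% for Cd74. H2-K1 and Cd74 thus lay nearest to the ends of their abundance classes, and the changes of H2-Aa, B2m and Tapbp were near the middle of theirs. The pair of class I heavy chains moved in opposite directions, and so did H2-Aa and H2-Ab1 against the invariant chain.

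**Figure D1:**
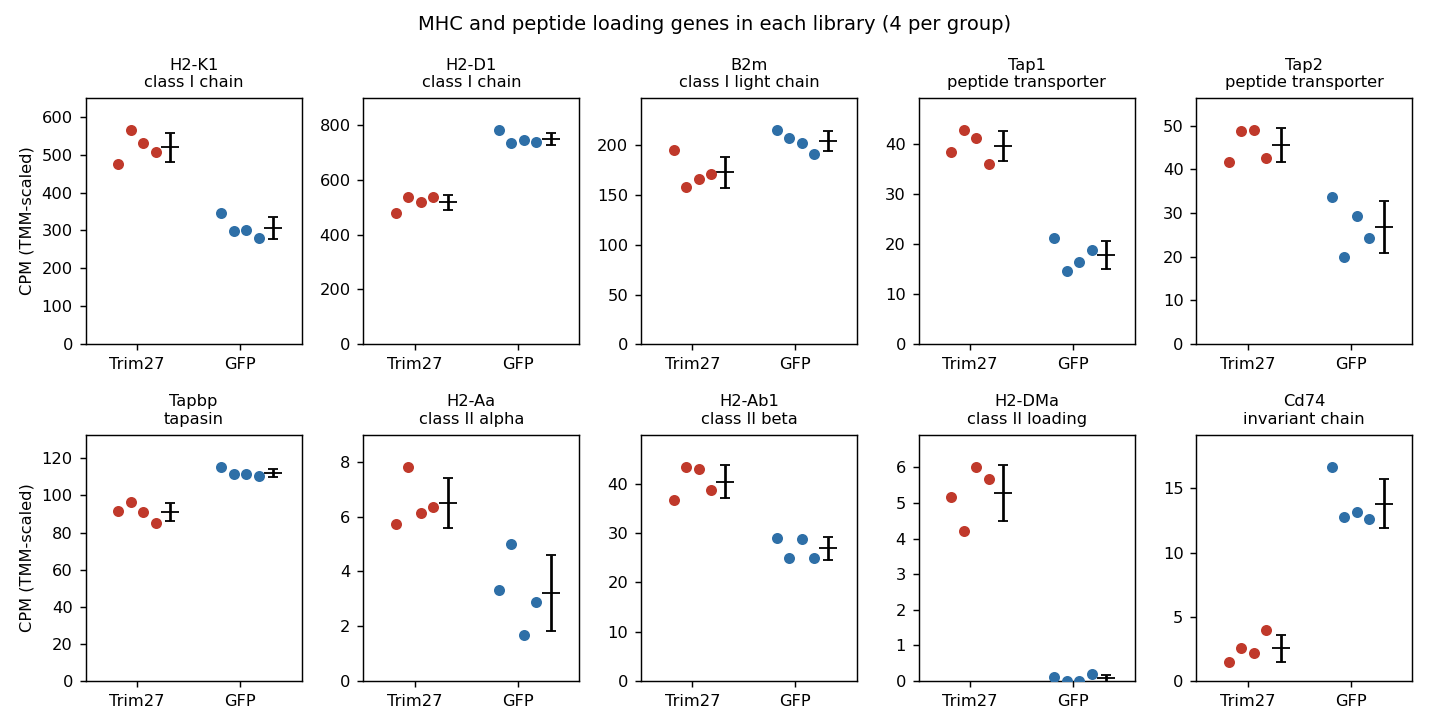
Level of each gene in CPM (vertical axes, each starting at 0) in the 4 Trim27 libraries (red, left) and the 4 GFP libraries (blue, right), with mean and SD in black. H2-K1, Tap1, Tap2, H2-Aa, H2-Ab1 and H2-DMa are higher in all Trim27 libraries, H2-D1, Tapbp and Cd74 are lower in all of them, and B2m overlaps.

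H2-K1 encodes a classical class I heavy chain, which in this strain is the K allele of the b haplotype. It stood at 475, 565, 529.9 and 507 CPM in Trim27 libraries and at 346, 298, 300.0 and 280.0 CPM in GFP libraries. Every Trim27 library lay above every GFP library, and the log2 fold change was 0.76 (SE 0.06, adjusted p = 4.0e-12). Its abundance class, 533 tested genes with a mean of 8 to 10 log2 CPM, had a median log2 fold change of -0.32.

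H2-D1 encodes the other classical class I heavy chain that this strain expresses. It stood at 479.9, 537, 521 and 537 CPM in Trim27 libraries and at 783, 737, 746 and 737 CPM in GFP libraries. It was lower in all Trim27 libraries than in any GFP library, with a log2 fold change of -0.53 (SE 0.05, adjusted p = 1.3e-11), or -0.23 (adjusted p = 1.8e-05) with library size alone. It belongs to the same abundance class as H2-K1.

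The sum of the heavy chains after TMM scaling overlapped between the groups, and their balance did not. H2-K1 and H2-D1 together stood at 1038 ± 61.2 CPM in Trim27 libraries and at 1057 ± 49.4 CPM in GFP libraries (SD, n = 4 each), and the ranges of 954.7 to 1102 CPM and 1017 to 1129 CPM overlapped. With B2m added, the class I chains took 0.129% to 0.138% of raw counts in Trim27 libraries, against 0.109% to 0.12% in GFP libraries. H2-K1 made up 49.7%, 51.3%, 50.4% and 48.5% of the counts of the pair in Trim27 libraries, against 30.7%, 28.8%, 28.7% and 27.5% in GFP libraries. The ratio of H2-D1 to H2-K1 counts was 1.01, 0.951, 0.983 and 1.06 in Trim27 libraries and 2.26, 2.47, 2.49 and 2.63 in GFP libraries. This ratio is taken within a library and does not depend on scaling between libraries. The highest ratio in a Trim27 library was less than the lowest in a GFP library.

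Reads of the 2 heavy chains can be told apart at many places, though not everywhere. Their coding sequences, read from GENCODE transcripts, were identical at 91.5% of 1080 aligned bases, and the longest identical run was 91 bases. The stretch with most differences within 60 bases is printed to show what separates the transcripts, with capitals at the 15 differing positions.
H2-K1, coding bases 492 to 551: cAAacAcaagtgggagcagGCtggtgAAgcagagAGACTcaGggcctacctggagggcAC
H2-D1, coding bases 501 to 560: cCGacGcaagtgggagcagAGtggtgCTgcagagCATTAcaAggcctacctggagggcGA
Of the 50-base words of H2-K1, 8.79% occurred in transcripts of another gene, mostly H2-D1 (6.94%), and of those of H2-D1, 14.3% did, mostly H2-Q1 (7.4%). Neither the read length nor the handling of multiply matching reads is stated, so how shared words were counted was not tested.

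B2m encodes beta-2 microglobulin, the light chain of all class I molecules. It stood at 195, 158, 166 and 172 CPM in Trim27 libraries and at 215, 207, 202 and 192 CPM in GFP libraries. Trim27 replicate 1 lay above GFP replicate 4, so the groups overlapped, and the other Trim27 libraries lay below all GFP libraries. The log2 fold change was -0.24 (SE 0.06, adjusted p = 4.8e-04). It was 0.07 (adjusted p = 0.315) with library size alone, 0.17 (adjusted p = 0.0099) after the length correction and 0.43 (adjusted p = 6.2e-07) when that correction was fitted on abundant genes only, all by the edgeR quasi-likelihood test. Its transcript is the shortest of the 10, at 860 bases, and short transcripts were lower in the Trim27 group across the table. The median log2 fold change was -0.57 over 747 tested genes of 500 to 1000 bases and 0.31 over 3817 genes of 2000 to 4000 bases.

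Set against B2m in the same library, both heavy chains differed between the groups. The ratio of H2-K1 to B2m counts was 3.04 ± 0.478 in Trim27 libraries and 1.5 ± 0.0745 in GFP libraries, and that of H2-D1 to B2m was 3.03 ± 0.403 in Trim27 libraries and 3.68 ± 0.124 in GFP libraries (SD, n = 4 each). Trim27 replicate 1 had the lowest value of its group in both ratios, 2.43 and 2.46. The groups did not overlap in either ratio. Per kilobase of exon, the heavy chains together were 2.82 ± 0.409 times B2m in Trim27 libraries and 2.28 ± 0.0593 times B2m in GFP libraries, and the lowest Trim27 value, 2.27, lay within the GFP range of 2.2 to 2.33.

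**Figure D2:**
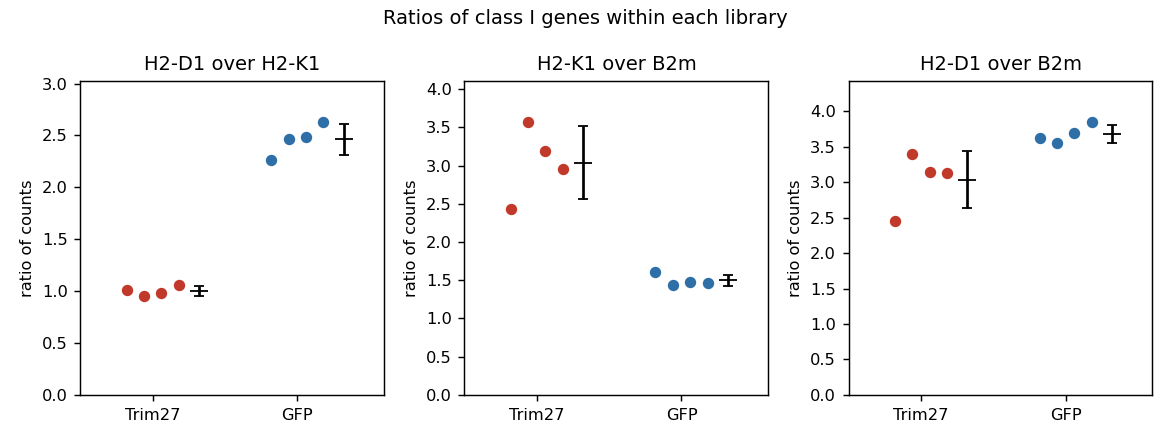
Ratios of counts between class I genes within each library (vertical axes, no unit, starting at 0), Trim27 in red on the left and GFP in blue on the right, with mean and SD in black. H2-D1 over H2-K1 is close to 1 in all Trim27 libraries and above 2.2 in all GFP libraries.

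The TAP genes rose together and the tapasin gene did not. Tap1, a subunit of the peptide transporter, stood at 38.3, 42.8, 41.3 and 36.0 CPM in Trim27 libraries and at 21.1, 14.7, 16.4 and 18.8 CPM in GFP libraries. Its lowest Trim27 value was above its highest GFP value, and the log2 fold change was 1.16 (SE 0.11, adjusted p = 3.1e-11). Tap2, the partner subunit, stood at 41.7, 48.9, 49.0 and 42.7 CPM in Trim27 libraries and at 33.6, 19.9, 29.4 and 24.3 CPM in GFP libraries, with a log2 fold change of 0.77 (SE 0.115, adjusted p = 1.1e-06). The GFP libraries of Tap2 spread widely, and still none reached a Trim27 library. After length correction the Tap2 value was 0.31 (adjusted p = 0.0125). The ratio of Tap1 to Tap2 counts was 0.87 ± 0.036 in Trim27 libraries and 0.675 ± 0.1 in GFP libraries (SD, n = 4 each). Exons of Tap1 overlap those of Psmb9 on the opposite strand over 212 bases. Those of Tap2 overlap the noncoding genes Gm15821 over 533 bases and Gm20496 over 165 bases, also on the opposite strand. Strand use is not given, and how far these overlaps affect the counts was not tested.

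Tapbp encodes tapasin, which bridges TAP and the class I heavy chain. It stood at 91.5, 96.7, 91.1 and 85.0 CPM in Trim27 libraries and at 116, 112, 111 and 110.4 CPM in GFP libraries. All Trim27 libraries were below all GFP libraries, with a log2 fold change of -0.30 (SE 0.06, adjusted p = 2.5e-05), but it was 0.0035 (adjusted p = 0.954) with library size alone and -0.67 after length correction. The antisense gene Gm19412 covers 24.9% of its annotated exon bases, and the protein-coding gene Zbtb22, on the same strand, covers 4.11%.

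H2-Aa and H2-Ab1, the chains of the class II A molecule, rose, while H2-Eb1, the beta chain of the E molecule, did not pass. H2-Eb1 had 18, 17, 4 and 10 counts in Trim27 libraries and 13, 4, 2 and 1 counts in GFP libraries (log2 fold change 0.49, adjusted p = 0.44), and its groups overlapped. H2-Ab1, the beta chain of the A molecule, stood at 36.6, 43.5, 42.9 and 38.7 CPM in Trim27 libraries and at 29.0, 24.9, 28.8 and 25 CPM in GFP libraries, with a log2 fold change of 0.59 (SE 0.09, adjusted p = 9.6e-07). It was 0.89 with library size alone and 1.02 after the abundant-gene length correction. H2-Aa, its alpha partner, stood at 5.72, 7.83, 6.13 and 6.37 CPM in Trim27 libraries and at 3.31, 5, 1.67 and 2.88 CPM in GFP libraries, with a log2 fold change of 1 (SE 0.24, adjusted p = 3.5e-04). No GFP library reached a Trim27 library in either gene. H2-Aa counts were 0.161 ± 0.0156 of H2-Ab1 counts in Trim27 libraries and 0.122 ± 0.0589 in GFP libraries (SD, n = 4 each), a ratio added after the values were seen. Per kilobase of exon, H2-Aa stood at 5.77 CPM and H2-Ab1 at 33.4 CPM in Trim27 libraries, against 2.85 and 22.2 CPM in GFP libraries.

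H2-DMa, the alpha chain of the molecule that exchanges class II peptides, was found almost only in the Trim27 group. It had 86, 70, 109 and 67 counts in Trim27 libraries and 1, 0, 0 and 2 counts in GFP libraries. Over the groups that is 332 counts against 3, a ratio of 63.5 after scaling (95% counting interval 21.6 to 310), which covers counting error only. Between 64.7% and 72% of the counts from 1 to 10 in a library were even, so single counts may not be independent and the interval may be too narrow. Large differences were common at this level, where the median log2 fold change of the 2115 tested genes under 2 log2 CPM was 1.91. In the comprehensive annotation, exons of H2-DMa overlap those of Brd2 on the opposite strand over 360 bases, and Brd2 stood at 101 ± 1.86 CPM in Trim27 libraries and 69.9 ± 2.76 CPM in GFP libraries (SD, n = 4 each). Its beta partners H2-DMb1 and H2-DMb2 were too low to be tested, with at most 6 counts in any library.

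Cd74, the invariant chain that holds new class II molecules, had the largest fall of the 10. It stood at 1.5, 2.53, 2.15 and 3.99 CPM in Trim27 libraries and at 16.7, 12.8, 13.2 and 12.6 CPM in GFP libraries. The highest Trim27 value lay far below the lowest GFP value, with a log2 fold change of -2.48 (SE 0.22, adjusted p = 1.0e-11), and GFP replicate 1 stood above the other GFP libraries. Without GFP replicate 1 and Trim27 replicate 1, a setting added after the values were seen, the log2 fold change was -2.2 (adjusted p = 1.3e-12 by the edgeR quasi-likelihood test). Cd74 counts were 0.0631 ± 0.0275 of H2-Ab1 counts in Trim27 libraries and 0.513 ± 0.0485 in GFP libraries (SD, n = 4 each), also a ratio added after the values were seen. Against H2-DMa, Cd74 had 0.291 to 0.701 times as many counts in Trim27 libraries, and 146 and 61.5 times as many in GFP replicates 1 and 4, the GFP libraries with any H2-DMa count.

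Markers of cells known for class II were examined beside these values. Markers of B cells summed to 40.4 to 55 CPM in Trim27 libraries and 65.6 to 158 CPM in GFP libraries, and 6 of the 8 tested fell, while 0 rose. GFP replicate 1, the highest library for Cd74, was also the highest for 8 of the 10 B cell markers. Markers of dendritic cells summed to 23.9 to 30.4 CPM in Trim27 libraries and 34.5 to 41.7 CPM in GFP libraries, and Flt3, Xcr1, Clec9a, Siglech and Cd209a had no count in any library. Of the 5 tested, 3 rose and 1 fell, against the direction of the sum. Zbtb46 fell to 2.87 CPM in Trim27 libraries, against 21.7 CPM in GFP libraries, while Batf3 stood at 3.75 CPM in Trim27 libraries and had no count in GFP libraries. Macrophage markers summed to 17.5 to 21 CPM in Trim27 libraries and 34.8 to 39.7 CPM in GFP libraries, with 7 of 11 at no count, C1qa, Mrc1 and Marco among them. Of the 3 tested, Csf1r fell to 2.79 CPM in Trim27 libraries, against 33.3 CPM in GFP libraries, and Emr1 rose to 10.8 CPM in Trim27 libraries, with no count in GFP libraries. Monocyte markers summed to 52.9 to 54.7 CPM in Trim27 libraries and 32.2 to 45.9 CPM in GFP libraries, and 2 of the 5 tested rose and 2 fell. The part of these cells in the class II values was not tested.

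**Figure D3:**
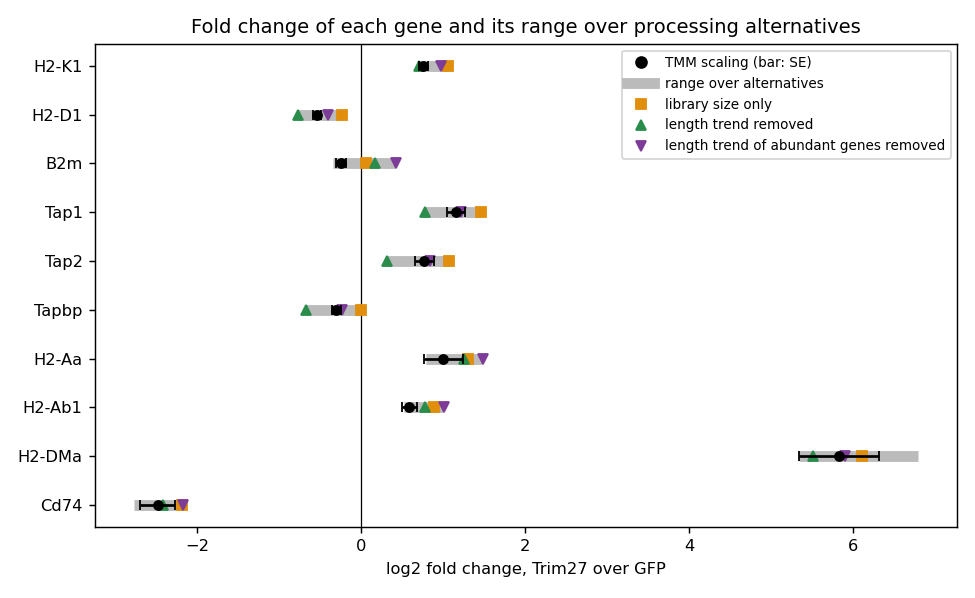
log2 fold change of each gene, Trim27 over GFP (horizontal axis), with the edgeR estimate and its SE in black and the range over all processing alternatives in grey. B2m changes sign between alternatives (-0.34 to 0.43), Tapbp reaches 0.0035 with library size alone, and the other 8 genes keep their side of 0.

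Levels of different genes were compared as CPM per kilobase of exon. In Trim27 libraries the order was H2-K1 (314), H2-D1 (247), B2m (201), H2-Ab1 (33.4), Tapbp (31.4), Tap1 (13.4), Tap2 (13.2), H2-Aa (5.77), H2-DMa (1.98) and Cd74 (1.8). In GFP libraries the order of these levels per kilobase was H2-D1 (357), B2m (237), H2-K1 (185), Tapbp (38.7), H2-Ab1 (22.2), Cd74 (9.75), Tap2 (7.78), Tap1 (6.01), H2-Aa (2.85) and H2-DMa (0.03). H2-K1 was thus the first in Trim27 libraries and the third in GFP libraries, and Cd74 moved to the last place. Among Trim27 libraries the values of H2-Ab1 and Tapbp, of Tap1 and Tap2, and of H2-DMa and Cd74 overlapped, and among GFP libraries those of Cd74 and Tap2 and of Tap2 and Tap1 did. The other neighbours in each order did not overlap. The direction of the summed class I level depended on the scaling. All 3 class I chains together took 0.134% ± 0.00358 of raw counts in Trim27 libraries and 0.113% ± 0.00442 in GFP libraries (SD, n = 4 each). After TMM scaling they summed to 1211 ± 45.4 CPM in Trim27 libraries and 1261 ± 58.2 CPM in GFP libraries, and the groups overlapped. The 4 class II genes took 0.00607% ± 0.000388 of raw counts in Trim27 libraries and 0.00396% ± 0.000296 in GFP libraries. After TMM scaling they summed to 54.75 ± 4.06 CPM in Trim27 libraries and 44.04 ± 3.6 CPM in GFP libraries, where the lowest Trim27 value, 49.03, lay just under the highest GFP value, 49.12.

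Other class I and class I-like heavy chains differed widely. Of 20 listed, 7 were abundant enough to test. Of these, 3 rose, 2 fell and 2 missed the threshold, against 47.5% higher and 38.0% lower over all tested genes. The median log2 fold change of the 7 was -0.33, whether Hfe stood at its fitted value or at its bound. Cd1d1, which presents lipids to natural killer T cells, rose to 15 ± 2.6 CPM in Trim27 libraries, against 3.46 ± 0.631 CPM in GFP libraries (log2 fold change 2.11). H2-T23, the Qa-1 chain, also rose, at 19.3 ± 2.43 CPM in Trim27 libraries and 13.9 ± 3.47 CPM in GFP libraries (0.48, or 0.78 with library size alone), though its groups overlapped (SD, n = 4 each). Hfe, a class I-like regulator of iron uptake, had 0 counts over the Trim27 libraries and 754 counts over the GFP libraries. Against a floor of 3 counts over the group, that is at least 438-fold lower if single counts are independent.

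H2-T10 and H2-T22, close relatives that gamma delta T cells recognise, went opposite ways. H2-T10 had 4, 4, 2 and 1 counts in Trim27 libraries and 105, 103, 109 and 137 counts in GFP libraries, with a log2 fold change of -6.09 (SE 0.30, adjusted p = 2.8e-17). H2-T22 had 24, 53, 43 and 30 counts in Trim27 libraries and 16, 12, 6 and 1 counts in GFP libraries, with a log2 fold change of 1.29 (SE 0.425, adjusted p = 0.00669) and an overlap between groups. Without replicate 1 of each group, a setting added after the values were seen, it was 1.95. Of the 50-base words of H2-T10, 40.2% also occur in H2-T22, and antisense genes overlap both, so the split of reads between them is uncertain. H2-Q6 (log2 fold change -0.64, adjusted p = 0.266) and H2-Q7 (-0.33, adjusted p = 0.411) did not pass, and without GFP replicate 1 the median of the 7 tested heavy chains was 0.57.

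Genes that cut, carry and load class I peptides were split. Of 19 tested, 9 rose, 7 fell and 3 did not pass (median 0.21, against 0.14 over all tested genes). With TMM, 47.5% of all tested genes were called higher and 38.0% lower. Library size alone gave 12 calls up and 7 down among the 19. The lectin chaperone calreticulin, Calr (0.41, SE 0.05), and the disulfide isomerase of the loading complex, Pdia3 (0.49, SE 0.05), rose, and after length correction they were at 0.16 and 0.14. Canx, which encodes calnexin, did not pass (-0.12, adjusted p = 0.137), but it passed without Trim27 replicate 1 (-0.22, adjusted p = 0.00108) and without GFP replicate 3 (-0.17, adjusted p = 0.037), and it had the opposite sign with library size alone (0.19). Its largest move was to -0.67 (adjusted p = 1.8e-10) after length correction. Erap1, which trims peptides in the endoplasmic reticulum, rose (0.66, SE 0.19, adjusted p = 0.00219), but it was at -0.05 after length correction, and 11.5% of its annotated exon bases overlap Cast on the opposite strand. Tapbpl, a tapasin relative that edits peptides, fell (-1.38, SE 0.14).

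Of the 8 tested proteasome subunit and activator genes in this list, 5 fell, 2 rose and 1 did not pass. Falls were common at their level, with 1040 of 1978 tested genes of 6 to 8 log2 CPM called lower. Of the 533 tested genes of 8 to 10 log2 CPM, 341 were called lower. The immunoproteasome subunits Psmb8 and Psmb10 fell, Psmb8 to 80.7 ± 8.34 CPM in Trim27 libraries against 125 ± 6.06 CPM in GFP libraries (-0.63), and Psmb10 to 196 ± 12 CPM in Trim27 libraries against 419 ± 37.2 CPM in GFP libraries (-1.10; SD, n = 4 each). With library size alone Psmb8 was at -0.33, and after the abundant-gene length correction Psmb10 was at -0.73. Psmb5, which Psmb8 replaces, fell (-0.92, or -0.28 after the abundant-gene length correction), and Psmb7, which Psmb10 replaces, was at 275 CPM in Trim27 libraries and 273 CPM in GFP libraries (0.01, adjusted p = 0.832). Psmb6 fell too (-0.51), but it was at 0.21 after the abundant-gene length correction and did not pass after the one fitted on all genes (-0.06, adjusted p = 0.289). Of the proteasome activators, Psme3, the nuclear form, rose (1.05, SE 0.05). Of the subunits of the interferon-inducible activator, Psme2 fell (-1.01, SE 0.05, or -0.43 after the abundant-gene length correction) and Psme1 rose (0.24, SE 0.05). The chaperones Hspa5 (0.91) and Hsp90b1 (0.98) and the membrane protein Derl1, which takes part in export from the endoplasmic reticulum (0.59), rose, and after length correction they were at 0.40, 0.63 and 0.17. Psmb9 is not analysed here. Psmb7 and Psme1 were named after their values were seen.

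Of 10 tested genes around class II loading, 6 rose, 2 fell and 2 missed the threshold (median 0.47, also with March8 at its bound). Over all tested genes, the shares were 47.5% higher and 38.0% lower. After length correction, 5 of the 10 were called up and 4 down. Ctss, the protease that trims the invariant chain, rose to 11.6 ± 0.726 CPM in Trim27 libraries, against 1.69 ± 0.699 CPM in GFP libraries (2.79, SE 0.23). H2-Oa, a subunit of the H2-DM inhibitor H2-O, rose to 7.42 ± 0.352 CPM in Trim27 libraries, against 0.456 ± 0.619 CPM in GFP libraries (4.04, SE 0.39; SD, n = 4 each). Exons of H2-Oa overlap the antisense gene BC051537 over 321 bases. Its beta partner H2-Ob did not pass (-0.25, adjusted p = 0.389). March8, a membrane ubiquitin ligase known to act on class II, had 1480 counts over the Trim27 libraries and none in any GFP library. Against a floor of 3 counts over the group, that is at least 283-fold higher if single counts are independent. Unc93b1, which carries Toll-like receptors to endosomes, rose (1.41, SE 0.10). Ifi30, the thiol reductase of class II processing, fell (-0.59, SE 0.08), but it was at -0.01 (adjusted p = 0.904) after the abundant-gene length correction. The protease gene Ctsl fell by 0.15 on the log2 scale but was at 0.15 with library size alone and at -0.91 after length correction, and it did not pass with upper-quartile scaling (-0.10, adjusted p = 0.0513). The antisense gene Gm47123 covers 26.8% of its annotated exon bases. H2-Ea-ps, the broken E alpha gene of this strain, had no count in any library, and neither had Cd80. H2-Eb1, H2-Ob, H2-Ea-ps and Cd80 were named after their values were seen.

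**Figure D4:**
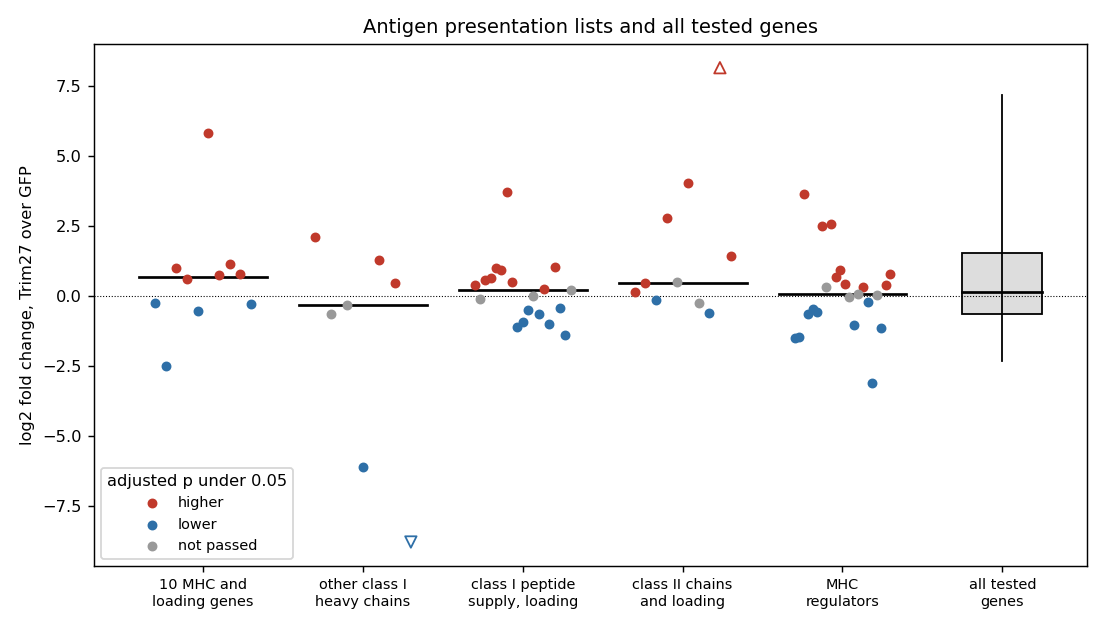
log2 fold change, Trim27 over GFP (vertical axis), of each tested gene in the 10 MHC and loading genes and in 4 related lists, with list medians as black lines. Red genes rose, blue genes fell and grey genes did not pass; open triangles (Hfe, March8) are bounds for genes with no count in one group, and the box at the right gives the quartiles (-0.65 and 1.55) and the 5th to 95th percentiles (-2.3 to 7.16) of all 11040 tested genes.

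The regulators of MHC transcription were called in both directions. Of 22 tested, 9 rose, 9 fell and 4 missed the threshold (median 0.06), against 47.5% higher and 38.0% lower over all tested genes. After length correction, 5 were called up and 11 down. Ciita, the switch of class II transcription, had no count in any library, which allows up to 0.0475 CPM over the Trim27 group and 0.0828 CPM over the GFP group at a floor of 3 counts, for counting error only. Nlrc5, the class I counterpart, had 4, 4, 8 and 6 counts in Trim27 libraries and 10, 4, 4 and 0 counts in GFP libraries, too few to be tested. Rfx5, the subunit that binds the X box with Rfxap and Rfxank, had 0 counts in Trim27 libraries and 6 counts in GFP libraries, all in GFP replicate 1. Rfxank fell to 2.86 ± 0.45 CPM in Trim27 libraries, against 24.3 ± 2.31 CPM in GFP libraries (-3.10, SE 0.16, adjusted p = 4.4e-17), and it overlaps Nr2c2ap on the opposite strand over 33.8% of its annotated exon bases.

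Interferon pathway genes were divided between the groups. Irf1, an activator of class I, Tap1 and Psmb9 promoters, rose to 10.9 ± 1.21 CPM in Trim27 libraries, against 1.94 ± 1.31 CPM in GFP libraries (2.49, SE 0.27, adjusted p = 3.8e-09; SD, n = 4 each). Ifnar1, a chain of the type I interferon receptor, rose (3.65, SE 0.17), as did Irf8 (2.57, SE 0.33), Irf9 (0.69, SE 0.11) and the kinase gene Tyk2 (0.79, SE 0.09). After length correction Tyk2 was at 0.09 (adjusted p = 0.415) and Irf9 at 0.29. Ifnar2, the other receptor chain, fell (-0.64, SE 0.08), and so did Creb1, a factor that binds TGACG motifs (-1.5, SE 0.20), and the Polycomb methyltransferase gene Ezh2 (-1.46, SE 0.08). After length correction Ifnar2 was at -1.05 and Creb1 at -2.38, and with library size alone Ifnar2 was at -0.34.

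The genes with profiles nearest to 3 of the members were found by Euclidean distance between centred log2 CPM over the 8 libraries, a description with no test. Nearest to B2m were Utp6, Lsm1 and Lyrm4 (distances 0.115, 0.123 and 0.13), with log2 fold changes of -0.27, -0.24 and -0.22, which all turn with library size alone. Nearest to H2-K1 were Adcy6, Bre and Max (0.118, 0.134 and 0.135), with log2 fold changes of 0.76, 0.78 and 0.81, and Adcy6 was at 0.01 (adjusted p = 0.903) after length correction. Nearest to Cd74 were Vill, Ezh1 and Phf7 (0.478, 0.497 and 0.528), with log2 fold changes of -2.29, -2.48 and -2.55. No other MHC gene was among these 9.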

How the data were processed

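The authors deposited raw read counts per gene symbol, 1 column per library. Per the submitters' processing notes, bcl2fastq, HISAT2, featureCounts and build NCBIM37 were used. The sources used here give no versions, strand setting or annotation release. The table held 1 line with no gene name and 0 counts, which was left out.

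The fit was made with edgeR 4.0.16 under R 4.3.3 (filterByExpr, minimum count 10 and minimum total 15; TMM; robust quasi-likelihood test, 2-sided, no covariate; Benjamini-Hochberg over all 11040 tested genes; threshold 0.05). SEs came from the log2 fold change and its F statistic. DESeq2 1.42.0 and limma 3.58.1 served as alternatives. The steps were tested on simulated data in which most genes were unchanged. In the real data 85.5% of tested genes passed, so that test cannot judge the scaling. Lengths and overlaps are from GENCODE (GRCm38), promoters from RefSeq; the build differs from the authors', so sequences were matched by symbol. CPM per kilobase divides by the GENCODE exon length.

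The members and lists were chosen with earlier results of these data known. Named genes are the 10 members, Trim27, 12 regulators and loading genes whatever their p (1 of them is not reported here), up to 4 further genes per list and direction by p, and the 3 nearest profiles of B2m, H2-K1 and Cd74. Markers of T and NK cells (113 to 118 CPM with Trim27, 53.7 to 61.9 with GFP), of endothelial and stromal cells (33.4 to 34.7 and 74.7 to 83.6) and of hepatocytes (14.3 to 16.4 and 1.2 to 1.7) were summed too. Of the 3 tested T and NK markers, 1 rose and 2 fell, and Gzmb alone stood at 112 CPM with Trim27 and 23 with GFP. Of the 3 tested endothelial and stromal markers, 1 rose and 2 fell, and 2 hepatocyte markers rose. No count was found for 6 of the 10 endothelial and stromal markers and 6 of the 8 hepatocyte markers. Alternatives covered scaling, filters, tests, thresholds, the length trend, halved counts, the replicate number as a block and each library left out.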

Additional observations from a re-analysis of the deposited data

Results flagged for a closer look

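In the GFP group, Cd74 was flagged because 1 library stood apart from the other 3. GFP replicate 1 was at 16.7 CPM and the others at 12.6 to 13.2 CPM, and the gap was 0.875 of the range of the group, against a critical value of 0.829 for 4 libraries. Chance flags about 1 in 20 such groups, and 20 were examined. Markers of B cells summed to 158 CPM in this library and to 65.6 to 94.8 CPM in the other GFP libraries. Their part in the Cd74 value was not tested.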

How the results depend on the processing

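Over 22 alternatives, 1 of them added after the data were seen, 210 of 218 values of the 10 genes kept their direction and their side of the threshold. The exceptions were B2m at 0.065 (library size only), 0.17 (length trend removed) and 0.43 (length trend of abundant genes removed), Tapbp at 0.0035 (library size only), and B2m, Tapbp, H2-D1 and H2-Ab1, which did not exceed a fold of 1.5 by glmTreat. That stricter test, by its construction, left 6 of the 10 genes, 8 class I supply genes (16 without it), 4 class II genes (8) and 10 regulators (18). Among the other named genes, the sign turned for Canx (0.19), Ctsl (0.15), Utp6 (0.032), Lsm1 (0.063) and Lyrm4 (0.088) with library size only, for Erap1 with the length trend removed (-0.054) and for Psmb6 with that of abundant genes removed (0.21); the cause was not tested. With any 1 library left out, all 10 genes passed, and 9 or 10 had groups that did not overlap. The replicate block, whose numbers did not pair the libraries (correlations of same-numbered deviations -0.0345 to 0.0207, and not every library closest to its own number), gave 9160 calls against 9442 over all genes and left all 10 members called. Genes with a few counts, such as H2-DMa in GFP libraries, are limited by depth.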
